A study of Mus musculus with 9 samples.

Results

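The genes described here encode 38 enzymes and core enzyme subunits that add methyl groups to histone lysines or remove them. They were taken by symbol from a fixed list of 38 genes, and all 38 were found among the 53819 gene rows of each library. RNA was sequenced from C57BL/6J mouse embryos at the morula stage, the compacting ball of cells that precedes the blastocyst, after in vitro fertilization, to ask whether alcohol taken by the father before conception is followed by altered expression in the embryo. The sires were control males, males on 6% EtOH or males on 10% EtOH, with 3 libraries for each, and the labels name no treatment of the mothers, no age and no number of embryos or sires behind a library. P-values therefore measure the spread between these libraries, part of which may be technical. In such bulk samples, fewer cells of a type and less RNA per cell cannot be told apart.

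Methylated lysines on histones H3 and H4 mark the state of chromatin. Methylation of H3K4 marks promoters and enhancers, H3K36 and H3K79 methylation lie over transcribed genes, H3K9 and H4K20 trimethylation mark heterochromatin, and H3K27 trimethylation, laid down by Polycomb repressive complex 2 (PRC2), marks silent developmental genes. Writers are methyltransferases and erasers are demethylases. In the mouse, the oocyte carries broad domains of H3K4 trimethylation that are removed after fertilization with the help of the Kdm5 enzymes, and H3K27 trimethylation from the oocyte silences some maternal alleles until after implantation. Of the 38 genes, 24 belong to writers and 14 to erasers.

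Library totals ran from 6263465 to 27619281 counts. The count column had a long header, naming the aligner, in 4 libraries (control 2, 6% EtOH 1, 10% EtOH 1 and 10% EtOH 2) and a short one in the other 5. Long-header libraries held 19574710 counts or more and short-header libraries 11026334 or fewer, so header form and depth cannot be told apart. Of 15 genes chosen to mark the morula, 13 stood at 1 CPM (a depth-normalised count, here on library sizes scaled by TMM factors) or more in all 9 libraries, and Sox2 and Upp1 did not. Of 11 oocyte genes none did, and of 12 genes of cumulus and granulosa cells, which surround the oocyte, none did and 4 (Has2, Ptx3, Cyp11a1 and Lhcgr) had no count in any library. Amhr2, of the same list, was at 0.816 CPM in control 1 and between 3.81 and 69.7 CPM in the other 8, highest in 10% EtOH 3 and 6% EtOH 2 (60.7 CPM), and its part in the values below was not tested. Of the 8 sperm and spermatid genes 5 were at 0 throughout. Genes of the 2-cell stage summed to 520.3 CPM in 10% EtOH 3 and to 99.7 CPM or less in the other libraries; their part in the values below was not tested.

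All 38 genes passed the filter on low counts, which kept 12488 genes. Libraries with no count at all were found for 2, Kmt2a (6% EtOH 2 and 3) and Kmt5c (control 3 and 6% EtOH 3). Kmt2a reached the filter's level in 5 libraries, 3 controls and 2 of the 10% EtOH group, and in none of the 6% EtOH group.

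Transcripts of the PRC2 subunits Suz12 and Eed were the most abundant of the set per kilobase of annotated exon. That length is the union of annotated exons and not the length of the transcripts expressed, so comparisons between genes are approximate. Suz12, a PRC2 subunit needed for the complex's stability, averaged 152 ± 76.1 CPM per kb over the 9 libraries (SD, n = 9). Eed, the PRC2 subunit that binds trimethylated H3K27, followed at 64.4 ± 27.9 CPM per kb. Then came the H3K4 erasers Kdm1a, which acts on mono- and dimethyl lysine as LSD1, at 36.8 ± 13.3 CPM per kb, and Kdm5b, which acts on the trimethyl form, at 35.8 ± 13.4 CPM per kb. Setd2, which trimethylates H3K36, stood at 33.3 ± 19.3 CPM per kb. These last 3 differed from each other by less than their spread. By CPM without a length, Suz12 averaged 753, Kdm5b 593, Setd2 358 and Eed 247. Kdm1a, at 191, then stood below Kdm3b (231) and Kmt2c (218). The places of Eed and Kdm1a therefore depend on the length used.

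At the low end by mean stood 3 of the large H3K4 writers of the Kmt2 family. Kmt2d, a monomethyltransferase of enhancers, averaged 0.308 ± 0.276 CPM per kb, Kmt2e, for which no methyltransferase activity is firmly known, 0.733 ± 0.611, and Kmt2b, which trimethylates promoters in oocytes, 0.978 ± 0.723 CPM per kb (SD, n = 9). Kdm4b, an eraser of H3K9 trimethylation, averaged 0.772 ± 0.548 CPM per kb, and Kmt5c, which trimethylates H4K20, averaged 0.948 ± 1.02 CPM per kb. These 5 lay within each other's spread. Kmt2a averaged 1.30 ± 3.28 CPM per kb, most of it from control 1, but its median over the libraries, 0.097 CPM per kb, was the lowest of the 38. The Kmt2 family was not low as a whole, since Kmt2c, the close relative of Kmt2d, stood at 10.7 ± 5.59 CPM per kb.

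**Figure D1:**
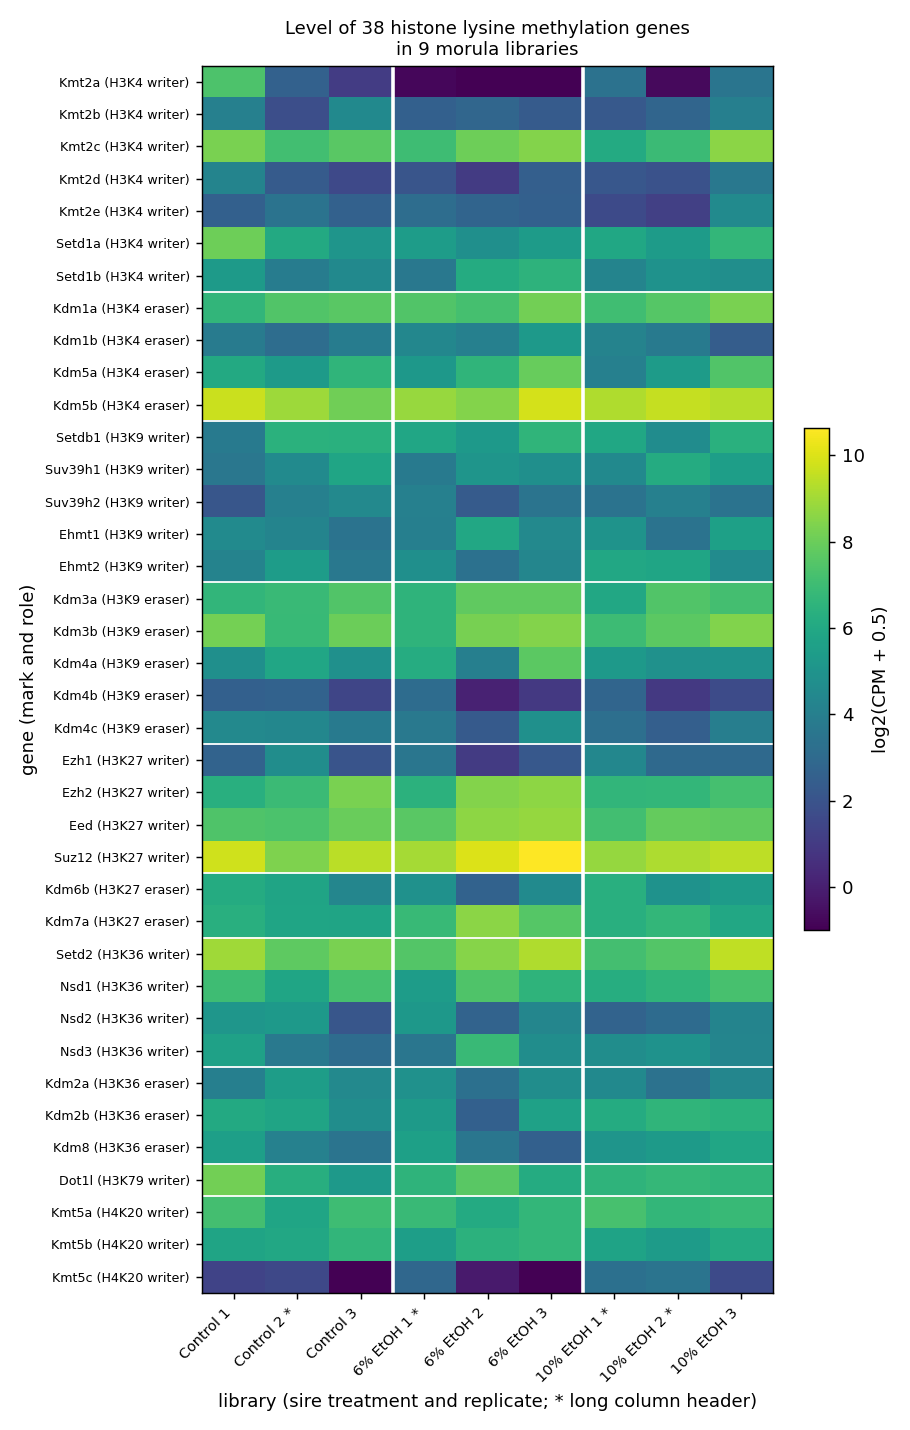
Level of each of the 38 genes, as log2(CPM + 0.5), in the 9 libraries, with genes ordered by mark and role and libraries by sire treatment (an asterisk marks a long column header). Suz12 is bright in every library, from 337 to 1575 CPM, and Kmt2a is bright in control 1, at 167 CPM.

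Single libraries carried a large part of some genes. Kmt2a was the only one of the 38 with most of its summed CPM in 1 library, 85.6 percent in control 1, which is 2.63 percent of the set against 10.7 percent of all 12488 tested genes. The highest library lay a median of 2.61 times above a gene's own median in the set and 3.01 times in all tested genes. By the ratio of the highest to the lowest library, Kmt5b, which dimethylates H4K20, varied least (2.53, from 40.9 to 103.5 CPM), and among genes without a 0 Kdm2b varied most (18.4, from 5.35 to 98.3 CPM).

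Promoter windows are printed for Kmt2a and Kdm7a, which had the smallest unadjusted p of the set by edgeR for 6% EtOH against control, though neither passed after adjustment. They are also printed for Suz12 and Kdm5b, both among the 5 highest genes per kilobase. They are RefSeq sequences on GRCm38.p6, from 250 bases before to 50 bases after the start of the gene, in capitals where C is followed by G (CpG); the counts were made on another build, GRCm39. Kmt2a lies at chr9:44881240-44881539 on the minus strand, Kdm7a at chr6:39206724-39207023 on the minus strand, Suz12 at chr11:79992856-79993155 on the plus strand and Kdm5b at chr1:134559928-134560227 on the plus strand.
Kmt2a: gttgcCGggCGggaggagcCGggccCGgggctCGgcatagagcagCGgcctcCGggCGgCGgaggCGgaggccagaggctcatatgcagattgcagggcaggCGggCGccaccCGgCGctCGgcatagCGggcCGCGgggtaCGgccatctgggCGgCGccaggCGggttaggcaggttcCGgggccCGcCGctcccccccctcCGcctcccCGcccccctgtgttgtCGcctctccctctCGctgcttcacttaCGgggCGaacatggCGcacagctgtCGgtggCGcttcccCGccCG
Kdm7a: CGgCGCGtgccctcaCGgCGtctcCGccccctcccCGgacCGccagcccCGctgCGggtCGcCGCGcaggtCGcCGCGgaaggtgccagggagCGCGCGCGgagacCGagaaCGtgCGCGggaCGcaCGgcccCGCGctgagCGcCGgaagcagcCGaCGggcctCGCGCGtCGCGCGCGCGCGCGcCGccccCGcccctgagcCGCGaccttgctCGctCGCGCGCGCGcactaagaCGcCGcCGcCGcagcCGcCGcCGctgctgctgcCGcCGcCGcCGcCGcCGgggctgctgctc
Suz12: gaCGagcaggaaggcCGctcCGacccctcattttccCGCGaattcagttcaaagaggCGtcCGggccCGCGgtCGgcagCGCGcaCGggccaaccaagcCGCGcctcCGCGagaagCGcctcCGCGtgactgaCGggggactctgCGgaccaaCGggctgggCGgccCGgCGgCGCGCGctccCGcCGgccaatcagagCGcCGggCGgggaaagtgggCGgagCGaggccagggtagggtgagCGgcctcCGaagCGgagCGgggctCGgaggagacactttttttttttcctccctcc
Kdm5b: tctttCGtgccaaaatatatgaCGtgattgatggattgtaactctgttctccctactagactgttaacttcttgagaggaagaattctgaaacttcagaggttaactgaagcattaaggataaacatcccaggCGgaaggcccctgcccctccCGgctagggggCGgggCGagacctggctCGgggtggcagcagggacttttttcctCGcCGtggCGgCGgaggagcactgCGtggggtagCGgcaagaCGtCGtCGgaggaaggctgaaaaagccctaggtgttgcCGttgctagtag
The windows hold 36 CpG in Kmt2a, 65 in Kdm7a, 41 in Suz12 and 17 in Kdm5b, against a median of 7 over 32851 windows of the same length. For 27 of the 38 genes the table held 38 windows, with a median of 28 CpG. The GC box GGGCGG, searched on both strands with overlap to other motifs ignored, was in all 4 windows printed, in 73.7 percent of the 38 windows and in 35.7 percent of all. Such a match is a description and not a binding site.

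No member of the set passed in any comparison. In morulae of 6% EtOH sires against control, edgeR's quasi-likelihood test with Benjamini-Hochberg adjustment over all 12488 genes called 0 of 38, where 0 percent of all genes were called. At an unadjusted p under 0.05 there were 3, or 7.89 percent against 6.24 percent of all genes. Of these, 1 was higher (Kdm7a), where 3.2 percent of all genes were, and 2 were lower (Kmt2a and Setd1a), where 3.04 percent were. Log2 fold changes of 19 genes lay above 0, as did 49.5 percent of all genes, with a median of 0.01 in the set and -0.01 over all genes. The groups did not overlap in 3 genes (Kdm7a and Kdm1b higher, Kmt2a lower), 7.89 percent against 8.06 percent of all genes, of which 3.35 percent were higher and 4.72 percent lower. These shares are near the background and are no result about the set.

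Between 10% EtOH and control, edgeR called 0 of 38, where 0 percent of all genes were called, and 0 members had an unadjusted p under 0.05, against 2.14 percent of all genes (0.857 percent higher and 1.28 percent lower). Of the 38, 18 lay above 0, against 47.1 percent of all genes, with a median of -0.03 in the set and -0.05 over all genes. The groups did not overlap in Kmt5c and Kdm2b, both higher, or 5.26 percent against 8.06 percent of all genes, of which 4.39 percent were higher and 3.67 percent lower. Between 10% EtOH and 6% EtOH, edgeR again called 0 of 38, with 0 percent over all genes, and 2 had an unadjusted p under 0.05 (Kmt2a higher, Kdm7a lower), 5.26 percent against 5.33 percent of all genes (2.25 percent higher and 3.07 percent lower). In that comparison 18 lay above 0, against 49.5 percent of all genes, with a median of -0.14 in the set and -0.02 over all genes, and the groups did not overlap in 4 genes (Kmt2a, Kdm2b and Kdm6b higher, Kdm7a lower), 10.5 percent against 9.66 percent of all genes (6.05 percent higher and 3.6 percent lower). DESeq2 called 0 of the 36 members to which it gave an adjusted p (not Kmt2a and Kmt2e) in each comparison, where it called 0.248 percent of all genes for 6% EtOH against control, 0.0801 percent for 10% EtOH against control and 0.272 percent between the doses. Limma voom with quality weights called 0 of the 38 too. Both comparisons with control use the same 3 control libraries. On library sizes without TMM factors the median of the set moved with that of all genes, to -0.27 for the set and -0.28 for all genes in 6% EtOH against control, -0.14 and -0.18 in 10% EtOH against control, and 0.09 and 0.13 between the doses.

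**Figure D2:**
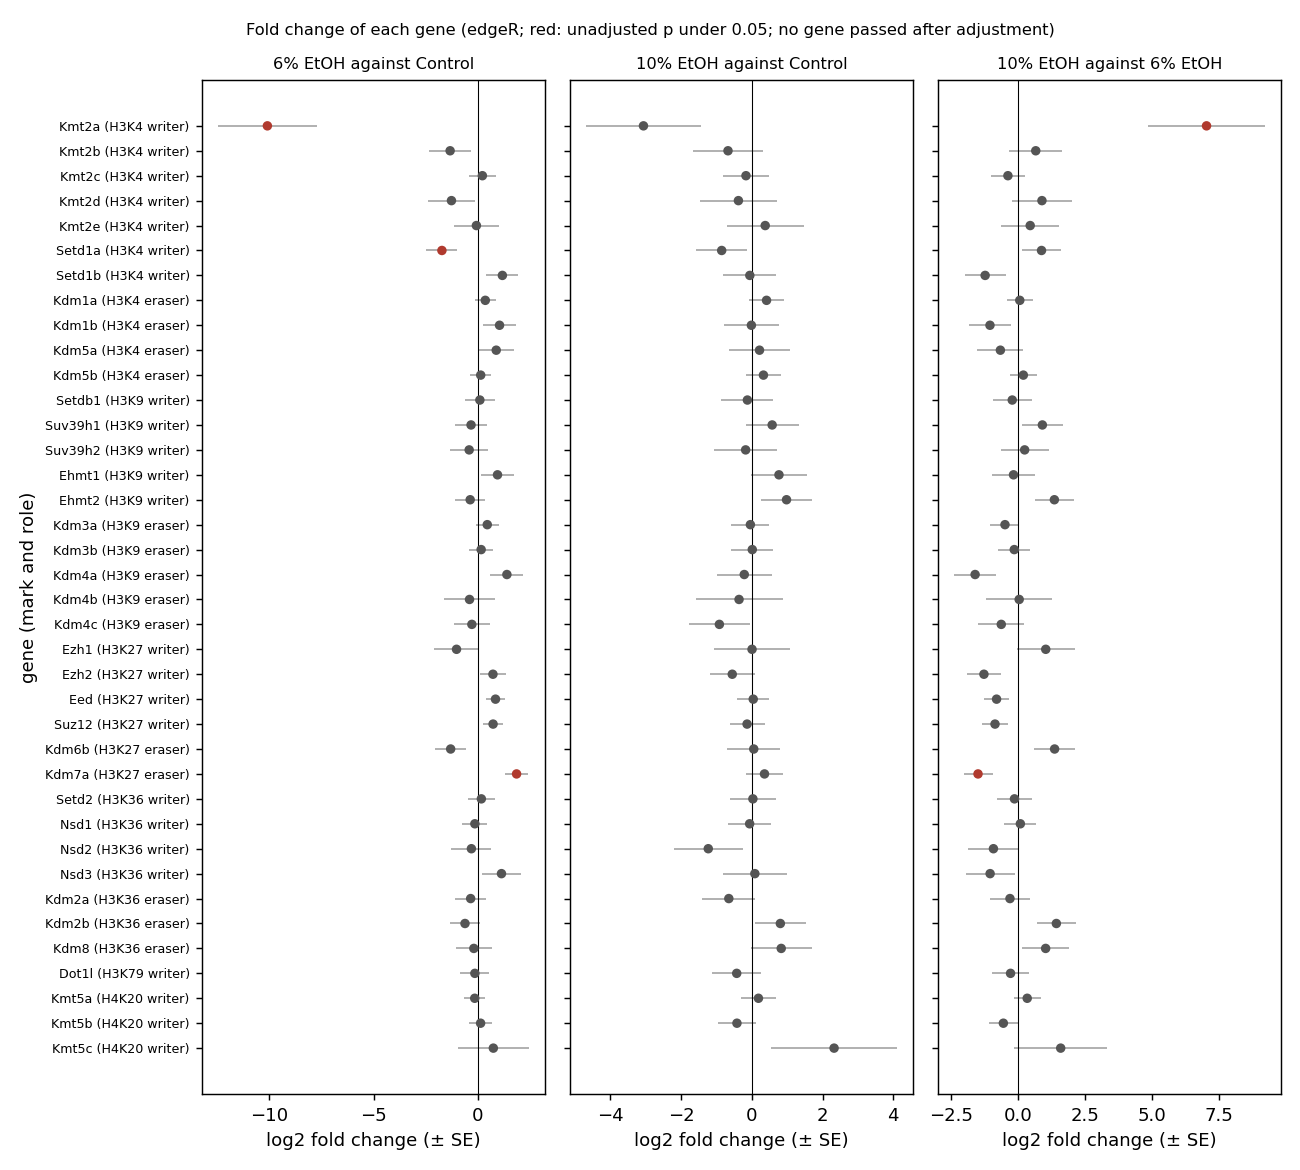
Log2 fold change of each gene with its SE from edgeR in the 3 comparisons, ordered by mark and role, on scales that differ between panels. Points lie on both sides of 0 in each panel, and Kmt2a lies farthest from 0 in the first at -10.09.

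Among the H3K4 writers, Kmt2a, the MLL1 enzyme that maintains Hox gene expression, varied most. It had 167, 5.64 and 1.61 CPM in control libraries, 0.0847, 0 and 0 CPM in 6% EtOH libraries, and 9.93, 0.110 and 10.8 CPM in 10% EtOH libraries. Control 1 stood far above every other library. All 6% EtOH libraries lay below all of the others, but 6% EtOH 1 held 2 counts and 10% EtOH 2 held 3. The order of those libraries is therefore not read as a difference between the doses. The 6% EtOH group held 2 counts in all and the control group 2213. The ratio of their summed rates was 0.00111, with an exact 95% interval from 0.000135 to 0.00403 that covers counting error only. Without control 1 it was 0.0109, from 0.00131 to 0.0400, on 2 and 167 counts.

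In the fit to all libraries the log2 fold change of Kmt2a was -10.09 ± 2.37 (SE) for 6% EtOH against control, with an adjusted p of 0.799 by edgeR, and -6.23 with an adjusted p of 0.947 without control 1. It was -3.07 ± 1.63 for 10% EtOH against control (adjusted p = 0.9999 by edgeR), and without control 1 it turned to 0.91. Between the doses, 10% EtOH over 6% EtOH, it was 7.03 ± 2.18 (adjusted p = 0.806 by edgeR). These fitted fold changes depend on how a count of 0 is handled and are no bounds. The gene passed the filter only through libraries of the other groups. Its unadjusted p, its non-overlap and calls made for it under other settings are therefore not read as support.

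Setd1a, which trimethylates H3K4 in a COMPASS complex, also had its high value in control 1. It had 268, 65.5 and 32.8 CPM in control libraries, 42.3, 27.1 and 41.3 CPM with 6% EtOH, and 59.8, 40.9 and 102 CPM with 10% EtOH. The groups overlapped. Its log2 fold change was -1.72 ± 0.74 for 6% EtOH against control (adjusted p = 0.799 by edgeR) and -0.43 without control 1. It was -0.85 ± 0.72 for 10% EtOH against control (adjusted p = 0.9999 by edgeR) and 0.45 without control 1.

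The paralogous enzyme Setd1b had 40.2, 14.1 and 22.7 CPM in control libraries, 12.0, 70.8 and 90.9 CPM with 6% EtOH, and 18.3, 29.8 and 25.9 CPM with 10% EtOH. Both short-header libraries of the 6% EtOH group were the highest of the 9. Its log2 fold change was 1.17 ± 0.76 for 6% EtOH against control (adjusted p = 0.836 by edgeR), and was 0.62 without 6% EtOH 3 and -0.22 between the long-header library of each group. Kmt2b averaged 5.52 ± 1.09 CPM with 6% EtOH and 13.9 ± 10.0 CPM in controls (SD, n = 3 each), with a log2 fold change of -1.33 ± 0.99 (adjusted p = 0.847 by edgeR), or -0.83 without control 3 and 0.88 between the long-header libraries. Kmt2c ran from 67.8 to 385 CPM over the 9 libraries, Kmt2d from 1.53 to 18.3 CPM and Kmt2e from 1.83 to 23.3 CPM. As a group, 5 of the 7 H3K4 writers lay below 0 for 6% EtOH against control (median -1.27). It was 6 of 7 for 10% EtOH against control (median -0.38), while 5 of 7 lay above 0 between the doses. Of all genes, 49.5, 47.1 and 49.5 percent lay above 0 in these comparisons. Control 1 was the highest library for Kmt2a, Kmt2d and Setd1a. Without it Kmt2a and Setd1a turned to 0.91 and 0.45 for 10% EtOH against control.

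For 6% EtOH against control, log2 fold changes of the H3K4 erasers ran from 0.14 (Kdm5b) to 1.04 (Kdm1b, SE 0.79, adjusted p = 0.851 by edgeR). Those of the H3K4 writers ran from -10.09 (Kmt2a) to 1.17 (Setd1b). Kdm1b, which is needed for maternal DNA methylation imprints in the mouse oocyte, had 13.7, 8.31 and 14.1 CPM in control libraries, 20.2, 16.4 and 37.4 CPM with 6% EtOH, and 17.98, 12.8 and 4.90 CPM with 10% EtOH. All 6% EtOH libraries lay above all controls, and the 10% EtOH libraries spanned the controls. Kdm5b had 822, 491 and 278 CPM in control libraries, 459, 349 and 940.1 CPM with 6% EtOH, and 594, 770.2 and 635 CPM with 10% EtOH, with full overlap. Kdm1a ran from 99.8 to 312 CPM, and Kdm5a, a trimethyl eraser like Kdm5b, from 16.1 to 239 CPM. For 6% EtOH against control 4 of 4 erasers lay above 0 (median 0.62), or 3 of 4 without TMM factors, and for 10% EtOH against control 3 of 4 (median 0.27).

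Of the H3K9 writers, Ehmt2 (G9a), which dimethylates H3K9, had 18.1, 41.9 and 12.0 CPM in control libraries, 26.8, 9.55 and 19.5 CPM with 6% EtOH, and 62.8, 55.7 and 24.1 CPM with 10% EtOH. Both long-header libraries of the 10% EtOH group were the highest, and the groups overlapped. Its log2 fold change was 0.98 ± 0.73 for 10% EtOH against control (adjusted p = 0.9999 by edgeR) and 1.35 ± 0.73 for 10% EtOH against 6% EtOH (adjusted p = 0.806 by edgeR). With each library left out the difference from control ran from 0.66 to 1.67, the latter without control 2, the long-header control. The gene's difference between header forms, long over short, was 1.23 ± 0.51. Its partner Ehmt1 (GLP) averaged 29.3 ± 18.7 CPM with 10% EtOH and 17.2 ± 6.60 CPM in controls (SD, n = 3 each), a log2 fold change of 0.77 ± 0.79 (adjusted p = 0.9999 by edgeR). It was 0.24 without 10% EtOH 3, 0.49 without control 3 and 1.17 without 10% EtOH 2. Setdb1, which trimethylates H3K9 to silence endogenous retroviruses, ran from 13.3 CPM in control 1 to 97.4 CPM in 6% EtOH 3. The Suv39h enzymes of pericentric heterochromatin ran from 11.5 to 69.7 CPM for Suv39h1 and from 3.76 to 21.8 CPM for Suv39h2. Control 1 was the lowest library for Setdb1, Suv39h1 and Suv39h2. Of the 5 H3K9 writers 2 lay above 0 for 6% EtOH against control (median -0.33) and 3 for 10% EtOH against control (median 0.58).

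Among the H3K9 erasers, Kdm4a, which also acts on H3K36, had 26.7, 58.5 and 27.9 CPM in control libraries, 71.7, 15.5 and 209.6 CPM with 6% EtOH, and 38.3, 29.2 and 30.1 CPM with 10% EtOH. The value of 6% EtOH 3 was far above the others and 6% EtOH 2 was the lowest of the 9. Its log2 fold change was 1.39 ± 0.79 for 6% EtOH against control (adjusted p = 0.822 by edgeR), or 0.21 without 6% EtOH 3, and -1.60 ± 0.79 for 10% EtOH against 6% EtOH (0.806), or -0.42 without that library. Kdm4c, of the same family, averaged 9.76 ± 4.96 CPM with 10% EtOH and 18.4 ± 4.47 CPM in controls (SD, n = 3 each), a log2 fold change of -0.92 ± 0.87 (adjusted p = 0.9999 by edgeR). Kdm4b stayed between 0.573 and 8.09 CPM. The mono- and dimethyl erasers Kdm3a and Kdm3b ran from 62.2 to 223 CPM and from 94.0 to 348 CPM. Of the 5 H3K9 erasers 3 lay above 0 for 6% EtOH against control (median 0.16, or -0.17 without TMM factors) and 1 for 10% EtOH against control (median -0.21).

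The core of PRC2 had its highest values in the 6% EtOH group, in both of its short-header libraries. Suz12 had 882, 337 and 679.5 CPM in control libraries, 528, 1043 and 1575 CPM with 6% EtOH, and 444, 579 and 706 CPM with 10% EtOH. Eed had 168, 161 and 251 CPM in control libraries, 198, 399 and 446 CPM with 6% EtOH, and 139, 237 and 220.5 CPM with 10% EtOH. Ezh2, the catalytic subunit, had 80.4, 120.2 and 308 CPM in control libraries, 87.8, 349 and 402 CPM with 6% EtOH, and 99.1, 103 and 144 CPM with 10% EtOH. For each of these genes 6% EtOH 2 and 3 were the highest of the 9 libraries, while 6% EtOH 1, of long header, lay within the range of the controls.

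The log2 fold change of Eed was 0.84 ± 0.46 for 6% EtOH against control (adjusted p = 0.822 by edgeR) and -0.80 ± 0.46 for 10% EtOH against 6% EtOH (0.806), or -0.53 without 6% EtOH 3. Ezh2 differed by -1.28 ± 0.64 for 10% EtOH against 6% EtOH (adjusted p = 0.806 by edgeR), by -0.85 without 6% EtOH 3 and by 0.19 within long-header libraries. Ezh1, the catalytic subunit that prevails in non-dividing cells, was at most 25.3 CPM. It had 6.04, 25.3 and 3.52 CPM in control libraries, 11.5, 1.53 and 4.07 CPM with 6% EtOH, and 20.5, 7.27 and 7.30 CPM with 10% EtOH. Its lowest library, 6% EtOH 2, was the second highest for Suz12, Eed and Ezh2. The summed CPM of the 4 genes was 1137, 643 and 1242 in control libraries, 825, 1792 and 2427 with 6% EtOH, and 703, 927 and 1078 with 10% EtOH. All long-header libraries lay below all short-header ones in that sum, and likewise in Suz12 alone. Suz12 held from 52.3 percent (control 2) to 77.6 percent (control 1) of the sum. Eed, Ezh2 and Ezh1 each overlapped between header forms, and Ezh1 was higher in long-header libraries (1.78 ± 0.73, long over short). The median log2 fold change of the 4 genes was 0.73 for 6% EtOH against control, -0.06 for 10% EtOH against control and -0.83 between the doses. On library sizes without TMM factors these medians were 0.41, -0.21 and -0.61. TMM factors were lowest in 6% EtOH 2 and 3, at 0.840 and 0.836, which raises the CPM of these libraries.

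Kdm7a, an eraser of H3K27 and H3K9 dimethylation, had the smallest unadjusted p of the erasers for 6% EtOH against control, 0.00506 by edgeR. It had 79.04, 56.6 and 53.9 CPM in control libraries, 112, 389 and 185 CPM with 6% EtOH, and 80.1, 101.5 and 61.4 CPM with 10% EtOH. All 6% EtOH libraries lay above all of the other 6. Over all genes, 3.35 percent were higher without overlap in 6% EtOH than in control. Between the doses, 3.6 percent were lower without overlap in 10% EtOH. How many genes stood apart from both other groups, as Kdm7a did, was not counted. The log2 fold change was 1.86 ± 0.55 for 6% EtOH against control (adjusted p = 0.799 by edgeR, 0.153 by DESeq2) and -1.50 ± 0.54 for 10% EtOH against 6% EtOH (0.806 by edgeR, 0.311 by DESeq2). For 6% EtOH against control it was 0.99 between the long-header library of each group and 2.09 in short-header libraries, and it was 1.23 without 6% EtOH 2. Between the doses it was -0.31 within long-header libraries (1 library of 6% EtOH), -2.21 within short-header libraries (1 library of 10% EtOH) and -0.86 without 6% EtOH 2.

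The other H3K27 eraser, Kdm6b (JMJD3), which removes the trimethyl mark, had its lowest mean in the 6% EtOH group. It had 70.1, 54.4 and 19.5 CPM in control libraries, 29.4, 5.73 and 23.0 CPM with 6% EtOH, and 79.1, 30.01 and 40.5 CPM with 10% EtOH. The 10% EtOH libraries lay above all 6% EtOH libraries, and the 6% EtOH libraries overlapped the controls. Its log2 fold change was -1.31 ± 0.76 for 6% EtOH against control (adjusted p = 0.822 by edgeR) and 1.36 ± 0.76 for 10% EtOH against 6% EtOH (0.806), or 0.87 without 10% EtOH 1.

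**Figure D3:**
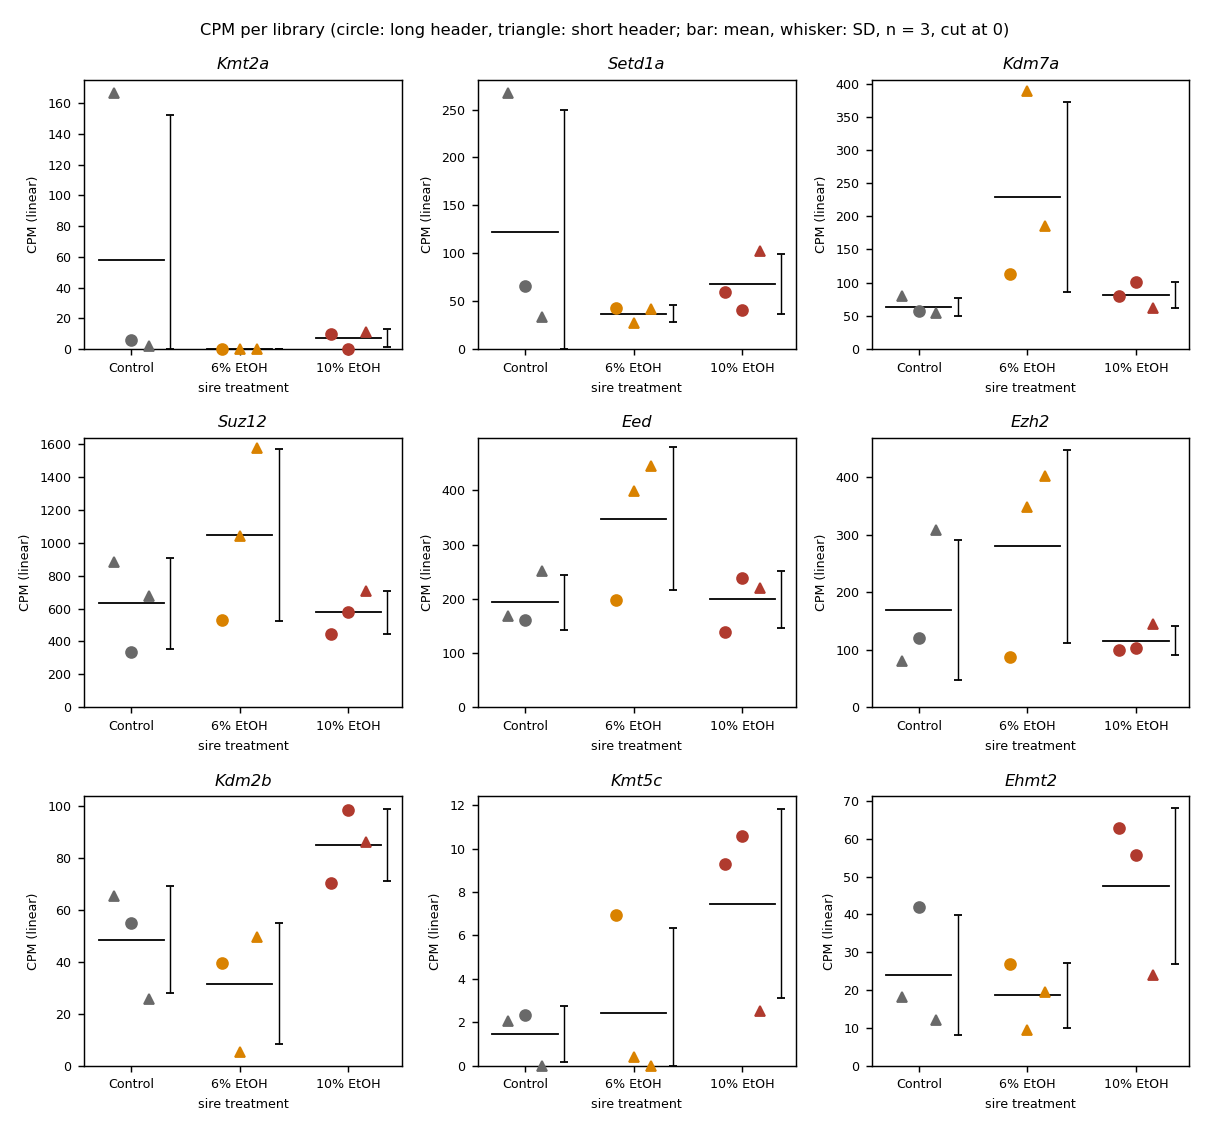
CPM of 9 genes in each library by sire treatment (circles, long header; triangles, short header), with the group mean as a bar and the SD as a whisker cut at 0 (n = 3). Control 1 sets the control mean of Kmt2a and Setd1a, and the 6% EtOH libraries of Kdm7a all lie above the rest, at 112 CPM or more.

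Among H3K36 enzymes, Kdm2b, an eraser that also brings Polycomb repressive complex 1 to CpG islands, had 65.2, 54.7 and 25.5 CPM in control libraries, 39.7, 5.35 and 49.7 CPM with 6% EtOH, and 70.4, 98.3 and 86.1 CPM with 10% EtOH. The 10% EtOH libraries lay above all of the other 6. Over all genes, 4.39 percent were higher without overlap in 10% EtOH than in control, and 6.05 percent than in 6% EtOH. How many stood above both groups was not counted. The log2 fold change of Kdm2b was 0.81 ± 0.73 for 10% EtOH against control (adjusted p = 0.9999 by edgeR) and 1.42 ± 0.74 for 10% EtOH against 6% EtOH (0.806). The first was 0.50 without control 3 and the second 0.94 without 6% EtOH 2. Kdm2a, of the same family, ran from 9.36 to 43.7 CPM, and Kdm8, first described as an H3K36 eraser, from 5.51 to 58.3 CPM. The 3 erasers all lay below 0 for 6% EtOH against control (median -0.35), and 2 of 3 lay above 0 for 10% EtOH against control (median 0.81).

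The writer Nsd2, a dimethyltransferase of H3K36, averaged 10.9 ± 6.85 CPM with 10% EtOH and 25.4 ± 18.9 CPM in controls (SD, n = 3 each), a log2 fold change of -1.23 ± 0.97 (adjusted p = 0.9999 by edgeR), or -0.79 without control 2 and -1.87 without 10% EtOH 3. Its relatives Nsd1 and Nsd3 ran from 41.8 to 169 CPM and from 8.21 to 116 CPM, with the highest library of both in 6% EtOH 2. Setd2 had 500.1, 211 and 314 CPM in control libraries, 181, 364 and 605 CPM with 6% EtOH, and 140.1, 185 and 722 CPM with 10% EtOH, so that in each group the lowest values were in long-header libraries. Dot1l, the H3K79 methyltransferase, had its highest value in control 1, at 284 CPM, and its lowest in control 3, at 36.9 CPM. The 10% EtOH libraries of Dot1l lay close together, from 93.8 to 105 CPM.

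Of the H4K20 writers, Kmt5c had 2.04, 2.35 and 0 CPM in control libraries, 6.94, 0.382 and 0 CPM with 6% EtOH, and 9.30, 10.6 and 2.51 CPM with 10% EtOH. The 10% EtOH libraries lay above all controls, with a log2 fold change of 2.33 ± 1.78 (adjusted p = 0.9999 by edgeR). It was 1.14 with header form as a term, and the gene's difference between header forms, long over short, was 2.82 ± 1.41 (adjusted p = 0.376 by edgeR). Its counts were 290 or fewer in each library. Kmt5a, the monomethyltransferase on which the other H4K20 writers depend, ran from 56.2 to 152 CPM and Kmt5b from 40.9 to 103.5 CPM, with overlap between all groups.

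Some of these genes differed between header forms by unadjusted p in edgeR, as did many of all genes, and none of the 38 passed after adjustment. In the fit with sire treatment and header form as terms, 8 of 38 had an unadjusted p under 0.05 for header form, 21.1 percent against 14.8 percent of all genes (7.53 percent higher and 7.28 percent lower). Whether the share of the set exceeds that of all genes was not tested. After adjustment 0 passed, where 0.104 percent of all genes did (smallest adjusted p of the 38 was 0.130 by edgeR). Setd2, Kdm3b, Kdm5a, Kmt2c, Nsd1 and Suz12 were lower and Ezh1 and Ehmt2 higher in long-header libraries. Without overlap between header forms, 5 genes (Setd2, Kdm3b, Kdm5a, Kmt2c and Suz12) were higher in short-header libraries, where 4.8 percent of all tested genes were, and Ehmt2 was higher in long-header libraries, where 4.28 percent were. Of the 38 genes 68.4 percent lay below 0 for long over short header, against 46.8 percent of all genes.

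Setd2 ran from 140.1 to 211 CPM in long-header and from 314 to 722 CPM in short-header libraries, with a log2 fold change of -1.51 ± 0.36, long over short. Kdm5a ran from 16.1 to 41.0 CPM in long-header and from 66.4 to 239 CPM in short-header libraries (-1.94 ± 0.51). Kmt2c ran from 67.8 to 136 CPM and from 198 to 385 CPM in the same order (-1.40 ± 0.37), and Kdm3b from 94.0 to 205 CPM and from 260.4 to 348 CPM (-1.38 ± 0.35). Summed over the 38 genes, the level was 4945, 2838 and 3653 CPM in control libraries, 2915, 4900 and 6724 CPM with 6% EtOH, and 2893, 3598 and 4978 CPM with 10% EtOH. The sire groups overlapped throughout in this sum. The long-header libraries, at 3598 CPM or less, all lay below the short-header ones, at 3653 CPM or more. This gap was smaller than that of single genes in the libraries at its edges. Suz12 had 579 CPM in the 10% EtOH library at 3598 CPM and 679.5 CPM in the control library at 3653 CPM. Setd2 had 185 and 314 CPM in the same order. Without either gene the header forms would overlap, so the separation is not read as a trait of all 38 genes. There was 1 long-header library in the control group, 1 in the 6% EtOH group and 2 in the 10% EtOH group. With header form as a term, edgeR called 0 of the 38 in each sire comparison, and the median log2 fold change of the set was -0.11 for 6% EtOH against control, 0.15 for 10% EtOH against control and 0.11 between the doses, where without the term it was 0.01, -0.03 and -0.14. Log2 fold changes then ran from -9.23 to 1.81 for 6% EtOH against control, from -2.19 to 1.14 for 10% EtOH against control and from -1.72 to 7.05 between the doses.

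**Figure D4:**
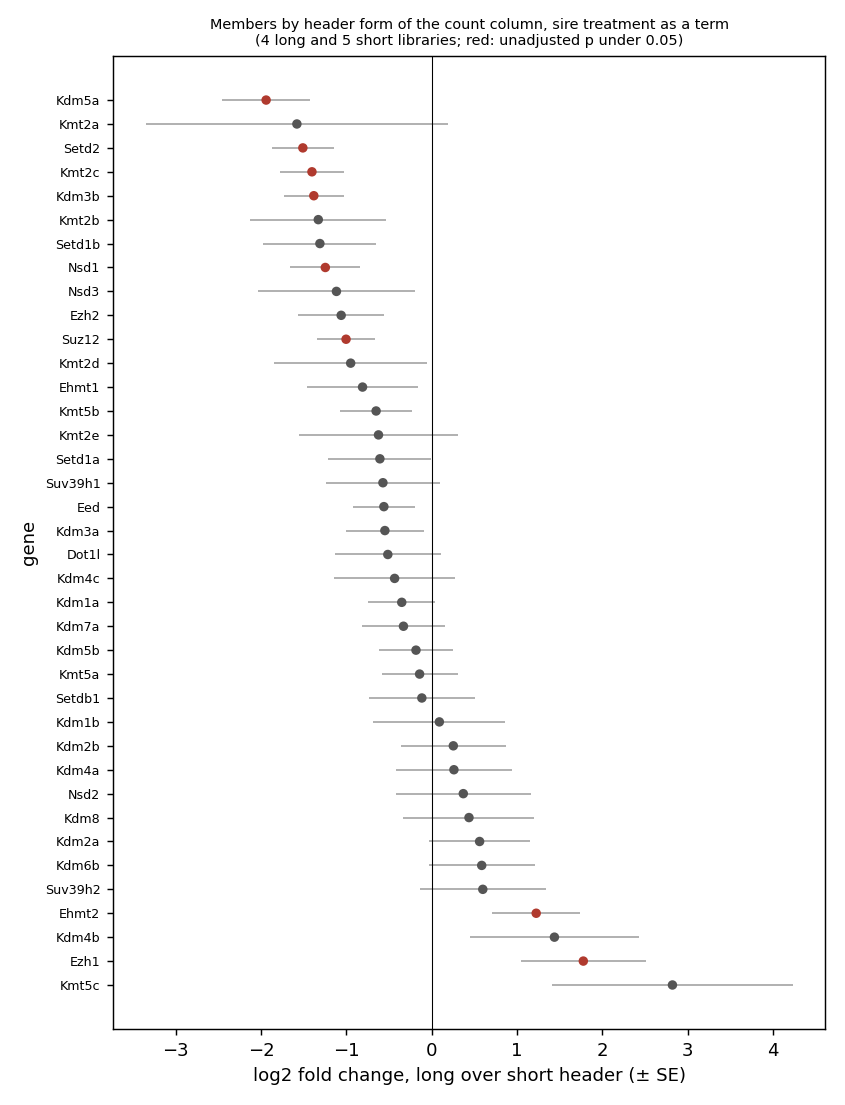
Log2 fold change of each gene for long-header over short-header libraries with its SE, from edgeR with sire treatment as a term. Most genes, 26 of 38, lie below 0, and Kdm5a lies lowest at -1.94.

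Partner subunits and other enzymes of histone lysine methylation were read from a list of 59 genes, of which 52 were tested, and no gene of it passed in any comparison. For 6% EtOH against control 2 had an unadjusted p under 0.05, or 3.85 percent against 6.24 percent of all genes. Both were lower, namely Rcor2, a CoREST partner of Kdm1a, and Uty, a Y-linked relative of the H3K27 erasers. Sex of the embryos behind each library was not available here, and its part in the level of Uty was not tested. Rcor2 averaged 3.92 ± 4.29 CPM with 6% EtOH and 21.6 ± 8.13 CPM in controls (SD, n = 3 each), a log2 fold change of -2.46 ± 0.97 (adjusted p = 0.799 by edgeR). In 10% EtOH against control there was 1, or 1.92 percent against 2.14 percent of all genes, namely Cxxc1, the CpG-binding subunit of the Setd1 complexes, with 51.1 ± 18.9 CPM against 11.1 ± 3.19 CPM in controls (2.20 ± 0.80, adjusted p = 0.9999 by edgeR). Between the doses there were 3, or 5.77 percent against 5.33 percent of all genes, and these, Rcor2, Cxxc1 and Uty, were all higher. Shares this near or under the background are no result about the list. Of the 52, 32 lay above 0 for 6% EtOH against control, 61.5 percent against 49.5 percent of all genes. For the other comparisons it was 26 for 10% EtOH against control (47.1 percent of all genes) and 27 between the doses (49.5 percent of all genes).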

How the data were processed

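Gene counts of 9 libraries were used, 1 deposited file each. The authors counted reads per gene with featureCounts on GRCm39 and named DESeq2, per the submitters' processing notes; the file headers of 4 libraries name RNA STAR. Versions, the annotation and the strand setting are not given in the sources used here, so counts of overlapping or antisense genes and of pseudogene copies are uncertain.

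Genes with few reads were removed (edgeR filterByExpr, minimum count 10); counts were scaled by TMM and fitted with 1 quasi-likelihood model of 3 groups. P-values were adjusted by Benjamini-Hochberg over 12488 genes and compared with 0.05. SEs come from the fold change and its F statistic. CPM are on TMM-scaled library sizes. Exon lengths are unions over GENCODE M21 transcripts and found for all 38 genes. The tests were tried on simulated data. For 6% EtOH against control edgeR recovered 1 of 50 genes changed 4-fold and 14 of 50 changed 16-fold. Of 188 DESeq2 calls there, 67 were false. A lack of calls therefore does not show that levels were equal. R 4.3.3 was used with DESeq2 1.42.0, limma 3.58.1 and edgeR 4.0.16.

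The members and lists were chosen with earlier results of these data known. Fold changes are given for the 4 members of smallest p in each direction of each comparison; other genes and values were named by level, by non-overlap of the groups or after their values were seen. All 36 pairs of libraries differed beyond sampling noise (lowest chi-square over its degrees of freedom, 116). Alternatives covered scaling, filters, tools, samples fitted, header form and each library left out. Replicate numbers are in accession order and pair nothing.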

Additional observations from a re-analysis of the deposited data

How the results depend on the processing

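The count of called members stayed at 0 in each comparison, and the fold changes of named members kept their direction, under every alternative run apart from those given here. It became 1, Kmt2a, for 6% EtOH against control with no filter on low counts and within short-header libraries, and 1, again Kmt2a, for 10% EtOH against 6% EtOH with no filter. Kmt2a reached the filter's level in none of the 6% EtOH libraries, so these calls set near-zero counts against groups through which the gene was kept, and they support nothing. The count over all genes, 0 in each comparison, became 140, 47 and 147 with no filter for 6% EtOH against control, 10% EtOH against control and 10% EtOH against 6% EtOH, 31, 10 and 34 by DESeq2, 3, 9 and 4 in long-header libraries, and 48, 2 and 1 in short-header libraries. The median over members for 6% EtOH against control was -0.27 on library size alone and ran from -0.16 to 0.10 with each library left out; for 10% EtOH against control it ran from -0.17 (without 10% EtOH 3) to 0.20 (without control 1). For 10% EtOH against 6% EtOH it was 0.30 in short-header libraries and ran from -0.47 (without 10% EtOH 3) to 0.24 (without 6% EtOH 3) with each library left out. Left-out libraries gave -3.64 to 0.91 for Kmt2a and -1.30 to 0.45 for Setd1a in 10% EtOH against control, both turned by control 1. In long-header libraries Kmt2b became 0.88 and Setd1b -0.22 for 6% EtOH against control, and Ezh2 0.19 for 10% EtOH against 6% EtOH. The control and 6% EtOH groups had 1 library each in long-header fits. In short-header fits the 10% EtOH group had 1, namely 10% EtOH 3. A group of 1 library was assumed to vary like the others. No paired analysis was possible because the libraries were numbered in accession order and nothing in the labels ties equal numbers together. The median SE of the members was 0.74 on the log2 scale for 6% EtOH against control, and 1.02 over all tested genes.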
